A study of Mus musculus with 3 samples.

Results

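Aqp8, Inmt, Trappc3l, Fmo1 and B3galt2 are 5 of the 19938 mouse genes measured in EWS/ATF1 sarcoma material. They were picked because their values on the array labelled tumor exceeded those on the array labelled high doxycycline by more than those of nearly all other genes, after matrix and interferon genes had been set aside. The values of that comparison therefore chose them and are given as a description.

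EWS/ATF1, the fusion of human clear cell sarcoma, consists of the start of EWSR1, which binds RNA, and of the transcription factor ATF1. Each of 3 groups has 1 array, and all are described as tumor cells of soft tissue sarcoma on a mixed C57/BL6, 129 and ICR background. The array labelled tumor was hybridised with RNA from a resected tumor of an EWS/ATF1-inducible mouse that received doxycycline for 3 months. The array labelled high doxycycline carries RNA of cultured tumor cells 24 hours after exposure to 0.2 microg/ml doxycycline. The array labelled control carries RNA of cultured tumor cells at the same time without the drug (0 microg/ml). Both culture samples bear one identifying number in the labels and the tumor bears another, and neither the meaning of these numbers nor the promoter of the transgene is stated. With 1 array per group nothing could be tested, and all values below describe these arrays and not the conditions.

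The tissue genes went against the labels. Summed intensities of 9 macrophage markers were 1081 on the array labelled tumor, 1350 on high doxycycline and 25058 on control, and 8 skeletal muscle markers summed to 1519, 1704 and 28598 in that order. For 9 fibroblast and matrix markers the sums were 2639, 2041 and 48750, and for 8 endothelial markers they were 989, 1081 and 7934. Tumor and high doxycycline correlated at 0.991 across probe sets, against 0.917 for tumor and control and 0.928 for high doxycycline and control. Whether the labels of tumor and control were exchanged cannot be told from these files. If they were, each value given here for tumor would be one of cultured cells. Arrays are therefore called throughout by what their labels say. Ewsr1 had intensities of 1624 on the array labelled tumor, 1650 on high doxycycline and 1660 on control, and Atf1 had 933, 1063 and 1189. Fos, named in the title of the series, had 302, 1234 and 1114. Nothing in the labels says whether these mouse probe sets see the transgene.

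The 5 genes belong to unrelated families. Aquaporins such as AQP8 form membrane channels for water, and AQP8 also passes hydrogen peroxide and ammonia. INMT methylates tryptamine and other small amines with S-adenosylmethionine as the donor, and FMO1 is a flavin monooxygenase that oxidises nitrogen and sulphur atoms of drugs and of hypotaurine. B3GALT2 is a Golgi enzyme that adds galactose to N-acetylglucosamine ends of glycans. Trappc3l encodes a close relative of TRAPPC3, a core subunit of the TRAPP complexes that tether vesicles on the way to and within the Golgi. Aqp8 is known from liver, pancreas, colon and testis, Inmt from lung, Fmo1 from liver and kidney of mice, and B3galt2 from brain.

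ATF1 binds the cyclic AMP response element (CRE), and Fos forms part of the AP-1 factors, so the promoters were searched for these letters. RefSeq (GRCm38.p6) sequences of 250 bases before to 50 bases after the start site were at hand for Aqp8, Inmt, Trappc3l and B3galt2. The promoters of B3galt2 (chr1:143640447-143640746, plus strand) and Inmt (chr6:55174941-55175240, minus strand) are shown 5′ to 3′ because they held a match, which stands in capitals.
B3galt2: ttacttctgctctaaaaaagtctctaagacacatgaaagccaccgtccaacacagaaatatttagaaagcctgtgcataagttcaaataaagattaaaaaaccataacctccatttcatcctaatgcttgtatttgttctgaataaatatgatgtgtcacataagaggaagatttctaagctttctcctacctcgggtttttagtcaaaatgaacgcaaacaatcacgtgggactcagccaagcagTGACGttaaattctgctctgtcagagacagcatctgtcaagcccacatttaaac
Inmt: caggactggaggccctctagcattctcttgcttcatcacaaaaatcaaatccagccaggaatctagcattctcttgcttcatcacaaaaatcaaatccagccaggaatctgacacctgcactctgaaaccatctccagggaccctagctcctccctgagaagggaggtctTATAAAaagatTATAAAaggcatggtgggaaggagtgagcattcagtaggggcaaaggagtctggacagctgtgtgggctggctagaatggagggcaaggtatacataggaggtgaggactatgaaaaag
The capitals in B3galt2 are the CRE half-site TGACG, on the sense strand from base -4 to base 1 relative to the start site. Those in Inmt are a pair of TATA letters, TATAAA, from -80 to -75 and from -69 to -64. The full CRE (TGACGTCA) and the AP-1 letters (TGANTCA), both searched on both strands, were in none of the 4 windows. Aqp8 and Trappc3l held no match to any of the 4 motifs. Among 32851 RefSeq promoter windows of the same length, 1.79% held the full CRE, 20.8% the half-site on either strand (which the full site contains), 7.81% the AP-1 letters and 8.32% TATAAA on the sense strand. The Inmt window had no CpG dinucleotide, as was the case for 5.43% of all windows, and the Aqp8, B3galt2 and Trappc3l windows had 6, 5 and 4 against a median of 7. Their GC content was 52.0% for Aqp8, 47.7% for Inmt, 44.7% for Trappc3l and 37.7% for B3galt2, with a median over all windows of 52.7%.

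The channel gene Aqp8 had an intensity of 954 on tumor, 147 on high doxycycline and 128 on control. It was bright on 1 array and below the median of all probe sets on the other 2. The log2 difference, taken throughout between log2(intensity + 1) values, was 2.69 for tumor minus high doxycycline (6.45-fold), the third largest of 11212 genes that passed the brightness filter. To pass, a gene had to exceed the median of its array on whichever of both arrays it was brighter. The high doxycycline and control arrays lay close together for Aqp8, with a log2 difference of 0.20.

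The enzyme genes Inmt and Fmo1 followed a shared order, with the array labelled tumor highest, control next and high doxycycline lowest. Inmt had 1218 on tumor, 216 on high doxycycline and 319 on control. That is 5.62-fold brighter on tumor than on high doxycycline (log2 difference 2.49) and 3.81-fold brighter than on control (1.93). Fmo1 had 1705, 352 and 472 on the same arrays. Its tumor value was 4.83-fold above high doxycycline (2.27) and 3.60-fold above control (1.85). Both genes were dimmer on high doxycycline than on control, Inmt by a log2 difference of -0.56 and Fmo1 by -0.42.

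The trafficking gene Trappc3l and the glycosylation gene B3galt2 had the opposite order of both culture arrays. Trappc3l had 1406 on tumor, 268 on high doxycycline and 166 on control. B3galt2 had 801 on tumor, 172 on high doxycycline and 56.9 on control. Trappc3l was thus 5.23-fold brighter on tumor than on high doxycycline (2.39) and 8.42-fold brighter than on control (3.07). For B3galt2 these folds were 4.65 (2.22) and 13.8 (3.79), so its distance to control was the larger one. The log2 difference of high doxycycline minus control was 0.69 for Trappc3l and 1.57 for B3galt2, whose control value lay at percentile 12.2 of all probe sets on that array. The B3galt2 values depend on the scale at such low brightness, since with a pseudocount of 64 its difference was 0.96 for high doxycycline minus control and 2.84 for tumor minus control.

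**Figure D1:**
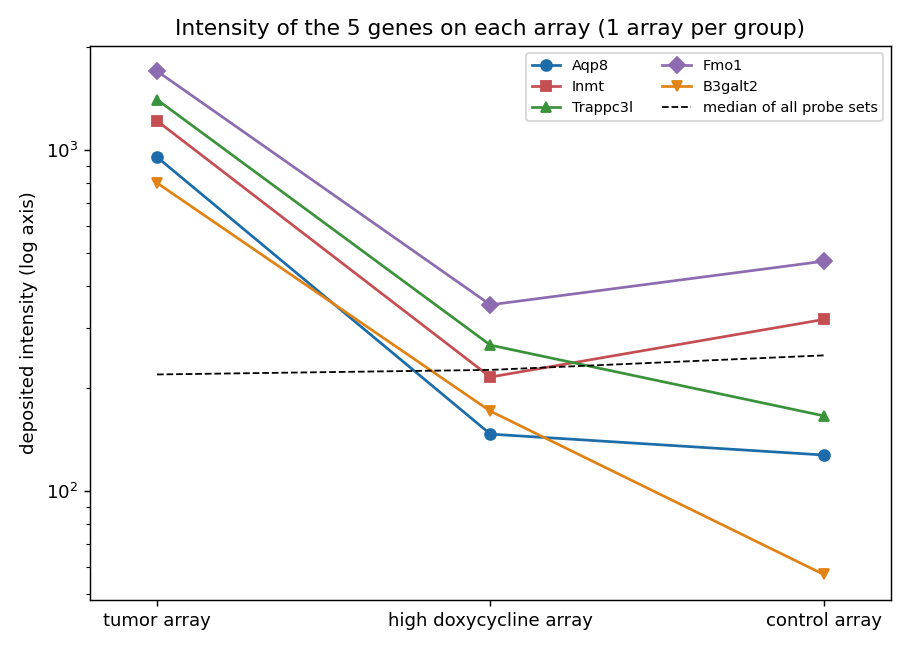
Deposited intensity (log axis) of the 5 genes on the arrays labelled tumor, high doxycycline and control. Lines join the values of a gene, the dashed line joins the medians of all probe sets, and each point is 1 array. All 5 genes lie above the dashed line on tumor, and 2 do so on high doxycycline (Trappc3l and Fmo1) and 2 on control (Inmt and Fmo1).

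All 5 genes passed the brightness filter for tumor minus high doxycycline, and they did so through the tumor array, on which they had been picked for high values. On high doxycycline only Trappc3l and Fmo1 lay above the array median. In this comparison 1.58% of the genes that passed were at least 2-fold brighter on tumor, and 1.94% were at least 2-fold dimmer, shares from which nothing is read because the same values chose the 5. Their median log2 difference was 2.39, beside 0.00 over all 11212 genes. Tumor minus control shares the tumor array with the choice. There, all 5 were at least 2-fold brighter on tumor (median 2.89), beside 18.5% of 12010 genes (with 10.2% dimmer) and a median of 0.075. High doxycycline minus control does not use the tumor array but shares the high doxycycline array with the choice, which favoured low values on it. B3galt2 exceeded 2-fold in this comparison, with its brighter value below the filter, as Aqp8 was. Inmt, Trappc3l and Fmo1 passed the filter, and 0 of these 3 reached 2-fold in either direction. The background was 17.4% of 11933 genes brighter on high doxycycline and 8.45% dimmer.

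The only measure of error within these data was the disagreement between different probe sets of a gene. It could not be had for the 5 genes themselves, which have 1 probe set each. Between tumor and high doxycycline, 649 genes with several bright probe sets had a median disagreement of 0.055 on the log2 scale and a 95th percentile of 0.46. No support is drawn from setting the 5 differences against this spread, since they were picked for their size, and it is a spread within arrays and not between samples. Between tumor and control the median was 0.38 and the 95th percentile 1.996 (the tumor values that chose the genes enter here too). Between high doxycycline and control they were 0.37 and 1.99 (the high doxycycline values entered the choice as well). None of the 5 differences in that comparison passed the 95th percentile, and that of Aqp8 lay below the median. This sets each gene alone against the spread, and the opposite order of the culture arrays between genes was not tested.

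Ranked by tumor minus high doxycycline, the 5 genes held places 3, 5, 6, 7 and 8. Between and above them stood the matrix genes Ogn (osteoglycin, 8.12-fold) and Aspn (asporin, 6.35-fold) and the interferon-stimulated gene Ifit3 (6.81-fold). B3galt2, the last of the 5, had a fold of 4.65, and just below it came the nerve growth factor receptor gene Ngfr at 4.65, Igfbp5, an insulin-like growth factor binding protein gene, at 4.63 and the receptor tyrosine kinase ligand gene Gas6 at 4.57. The step from B3galt2 to Ngfr is smaller than the disagreement between probe sets, so the end of the group is a matter of rank alone. Ngfr had 4450 on tumor, 957 on high doxycycline and 669 on control. Igfbp5 and Gas6 differed from the 5 in being brightest on control, with 745, 160 and 1445 for Igfbp5 and 1565, 342 and 6154 for Gas6 on tumor, high doxycycline and control.

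**Figure D2:**
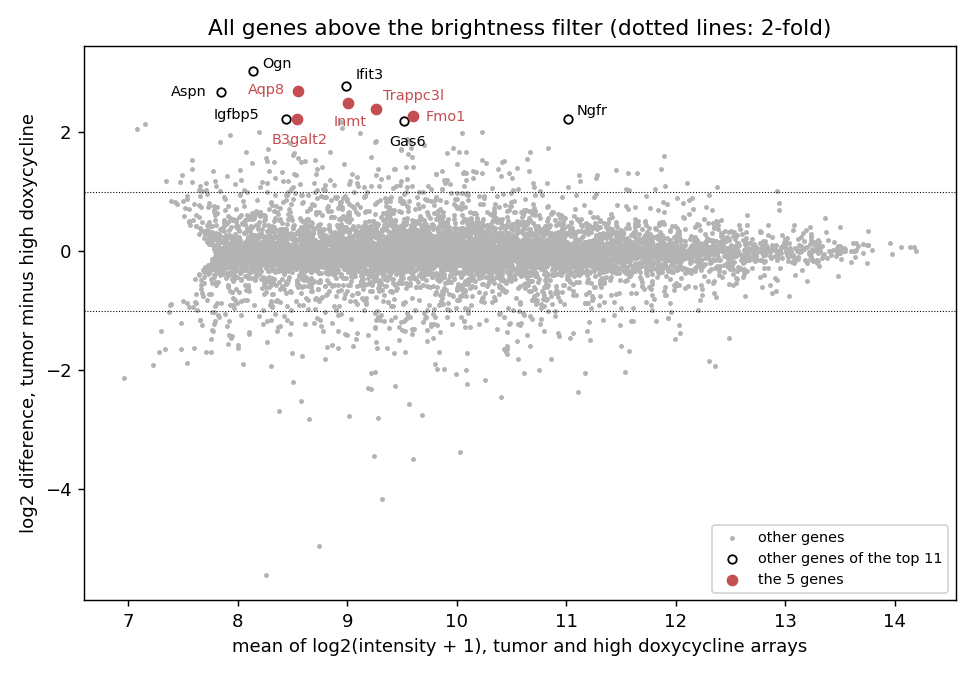
Log2 difference of tumor minus high doxycycline against mean brightness of these arrays, for 11212 genes above the brightness filter (1 point per gene). The 5 genes (filled red, from 2.22 for B3galt2 to 2.69 for Aqp8) lie at the upper edge among the other genes of the top 11 (open circles), and most genes lie between the dotted 2-fold lines.

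Likeness of pattern was measured as the Euclidean distance between the 3 log2 values of each gene after centring on their mean, over 12111 genes bright on at least 1 array. With 3 points per gene, and with high tumor values fixed by the choice of the 5, it is a description. Inmt and Fmo1 were each other's nearest gene, at a distance of 0.15. After Fmo1, the genes closest to Inmt were Ogn (0.45) and Hsd11b2 (0.49), which encodes the enzyme that inactivates glucocorticoids. Those closest to Fmo1 after Inmt were Hsd11b2 (0.33) and Calcrl (0.36), a receptor gene for calcitonin-related peptides. Trappc3l was nearest to Ngfr (0.24), Ifit3b (0.25) and Ifit3 (0.29). Aqp8 was nearest to Ngfr (0.34), Trappc3l (0.35) and Ifit3 (0.38). B3galt2 lay closest to the cadherin gene Cdh10 (0.11), the neuromedin B receptor gene Nmbr (0.18) and Tmem255a (0.39). Cdh10 had 1015 on tumor, 241 on high doxycycline and 77.0 on control. Among the 5, the largest distance was 1.64, between Inmt and B3galt2.

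The family counts that follow stand beside 1.58% of all genes that passed being at least 2-fold brighter on tumor than on high doxycycline, and 1.94% dimmer. A count of 0 in a family lies near these shares. Of the 11 other aquaporin genes, 6 passed the brightness filter for tumor minus high doxycycline, 2 were at least 2-fold brighter on tumor and 0 were dimmer by that margin (median 0.12). These were Aqp1, the water channel of red cells and vessels, with 4755 on tumor, 1918 on high doxycycline and 3965 on control, and Aqp7, a glycerol channel of adipocytes, with 286, 127 and 127. Aqp1 lay near its tumor value on control, where Aqp8 was dim. Aqp11 had 390, 320 and 195, a difference of 0.28 for tumor minus high doxycycline. Aqp9 and Aqp3, which lay below the filter, had differences of 0.05 and -0.05 for tumor minus high doxycycline.

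None of the other flavin monooxygenase genes passed the filter beside Fmo1 in that comparison. Fmo2, the lung form in many mammals, had 160 on tumor, 115 on high doxycycline and 623 on control. It was thus brightest on control, where Fmo1 was not. Fmo4 and Fmo9 had equal values on all 3 arrays, and Fmo5 had 105, 108 and 141. Among 19 other genes of drug and aldehyde oxidation, 5 passed and 1 was at least 2-fold brighter on tumor than on high doxycycline, the microsomal epoxide hydrolase gene Ephx1 (3330 on tumor, 1004 on high doxycycline and 1502 on control). Like Fmo1 and Inmt, Ephx1 had its lowest value on high doxycycline. Cyp2s1, a cytochrome P450 gene, had 611, 324 and 240 and stayed below 2-fold over high doxycycline at 0.91. Of the others that passed, Cyp4b1 and Aox1 were also lowest on high doxycycline, and Nqo1, like Cyp2s1, was lowest on control.

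Among 11 other small molecule methyltransferase genes, 5 passed the filter, and 0 differed by 2-fold between tumor and high doxycycline (median 0.00). Mettl7a1 came closest, with 532 on tumor, 276 on high doxycycline and 316 on control (0.94). The thiopurine methyltransferase gene Tpmt had 1502, 1825 and 228, and the creatine synthesis gene Gamt had 2077, 1544 and 592. Both were thus at least 2-fold brighter on each of these arrays than on control, while Inmt was brighter than on control on tumor alone. The nicotinamide methyltransferase gene Nnmt, a close relative of Inmt, was below the filter, with 124, 138 and 150.

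All 14 other TRAPP subunit genes passed the filter, and 0 differed by 2-fold between tumor and high doxycycline (median 0.00, from -0.17 for Trappc5 to 0.37 for Trappc2). Trappc3, the relative after which Trappc3l is named, had 4156 on tumor, 3930 on high doxycycline and 1984 on control, a log2 difference of 0.08 for tumor minus high doxycycline against 2.39 for Trappc3l. Against control, 5 of these 14 were at least 2-fold brighter on tumor and 4 on high doxycycline, beside 18.5% and 17.4% of all genes that passed. The largest were Trappc2 (2.20 and 1.83), Trappc13 (1.66 and 1.65) and Trappc6b (1.36 and 1.36).

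Among the 17 other beta-1,3-glycosyltransferase genes, 12 passed for tumor minus high doxycycline, 2 were at least 2-fold brighter on tumor and 1 was dimmer (median -0.083). B3gnt2, which extends polylactosamine chains, had 825 on tumor, 336 on high doxycycline and 253 on control. B3galt1, a galactosyltransferase of the same family, had 2083, 1019 and 369, the same order of arrays as B3galt2. B3galt5 was the dimmer one, with 352 on tumor, 1086 on high doxycycline and 201 on control. None of the 6 beta-1,4-galactosyltransferase genes differed by 2-fold in any comparison. Over all genes that passed, 18.5% were brighter and 10.2% dimmer by that margin for tumor minus control. For high doxycycline minus control the shares were 17.4% and 8.45%. With 6 genes, the count of 0 is not read as a result about this family.

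**Figure D3:**
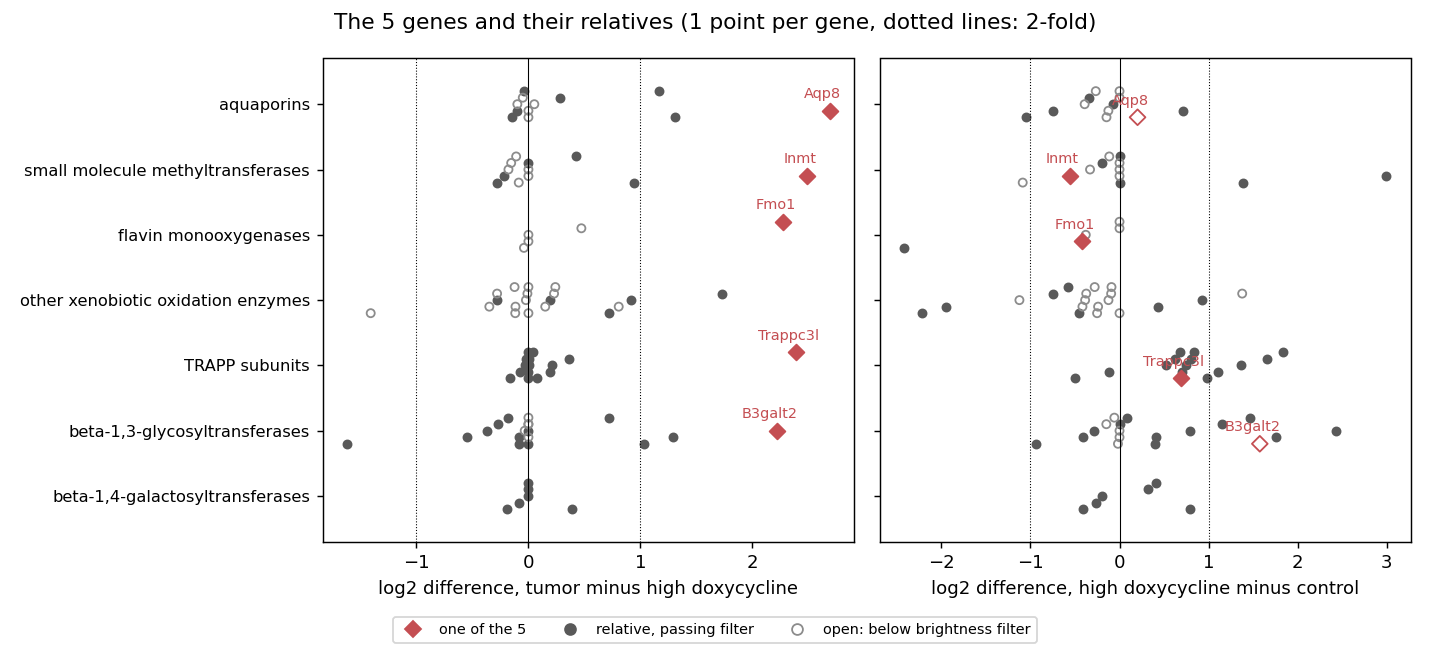
Log2 difference of each gene of 7 families for tumor minus high doxycycline (left) and high doxycycline minus control (right), 1 point per gene. Red diamonds mark the 5 genes, open symbols lie below the brightness filter and dotted lines mark 2-fold. The place of the 5 on the left was fixed by their choice, Ephx1 reaches furthest among the relatives there (1.73), and on the right the 5 lie among their relatives. The choice also enters the right panel, through the high doxycycline values.

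Many values in these families were exactly equal on tumor and high doxycycline, as they were for 34.6% of all probe sets. Equal values were held by 6 of the 18 beta-1,3-glycosyltransferase genes, 3 of 15 TRAPP genes and 2 of 12 aquaporin genes. None of the 5 genes had equal values on any pair of arrays, which for tumor and high doxycycline follows from their choice. No source used here gives a reason for the equal values, and the medians of 0.00 above include them.

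Markers of liver, lung, kidney, pancreas, intestine and fat were set beside these genes, and brain and testis were not covered. In bulk RNA, fewer cells of a type and less RNA per cell cannot be told apart. Of 9 hepatocyte markers 2 lay above the tumor array's median (Apoa1 at 246 and Apoa2 at 390, each equal to its value on high doxycycline), while albumin (Alb) had 51.6 on all 3 arrays. The summed intensities of this list were 1212 on tumor, 1231 on high doxycycline and 1321 on control. Lung epithelial markers summed to 884, 921 and 1129, with 1 of 8 above the median on tumor, and the surfactant gene Sftpc had 91.9, 95.6 and 96.8. Kidney tubule markers summed to 1160, 1198 and 1361 (1 of 8), with uromodulin (Umod) at 113, 119 and 141, and pancreas acinar markers to 826, 859 and 971 (0 of 5). Intestinal markers summed to 3166, 6189 and 4149 (2 of 8). The keratin gene Krt20 made up most of that sum and was dimmer on tumor (2394) than on high doxycycline (5430). Adipocyte markers summed to 868, 832 and 1982 (0 of 7). Of all 79 markers of 10 cell types, 0 were at least 2-fold brighter on tumor than on high doxycycline, and the highest was the matrix gene Dcn at a log2 difference of 0.88. This count took markers of any brightness. Over all genes that passed the filter the share was 1.58%, so the count of 0 lies near it and is not read as a result about cell types. The fibroblast and matrix list was mixed, with a median of 0.51 over its 7 genes that passed the filter, beside 0.00 over all genes. None of its genes reached 2-fold. Postn had 0.73, Sparc 0.71, Pdgfra 0.51 and Col3a1 0.21, while Col1a1 had -0.05 and Col1a2 -0.16. Thy1, below the filter, had -0.05. The summed intensity of this list was 2639 on tumor and 2041 on high doxycycline. The part of these cells in the values of the 5 genes was not tested.

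Chromosomal neighbours were set beside each gene after the values had been seen. The RefSeq order of protein-coding genes (GRCm38.p6) was used for order alone, with 4 genes on each side. Of 35 measured neighbours 22 passed the filter for tumor minus high doxycycline, and 3 of these were at least 2-fold brighter on tumor and 0 dimmer, beside the background of 1.58%. Calhm5, a calcium homeostasis modulator gene and the second gene after Trappc3l, had 1101 on tumor, 278 on high doxycycline and 213 on control (log2 difference 1.98). Its order of arrays was that of Trappc3l. Calhm4, which lies between them, had 99.2, 104 and 120, and Calhm6, next beyond, had 85.4, 85.4 and 112, so that the bright pair is interrupted. Aqp1 is the second gene after Inmt (1.31), and Mindy4 between them was not brighter on tumor (-0.35). Rgs2, a regulator of G-protein signalling, is the fourth gene after B3galt2, with 5153 on tumor, 2504 on high doxycycline and 2252 on control (1.04). Cdc73 and Glrx2, directly beside B3galt2, differed by 0.10 and 0.03. The measured neighbours of Aqp8 differed by at most 0.27 (Arhgap17), and those of Fmo1 by at most 0.47 (Fmo2).

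**Figure D4:**
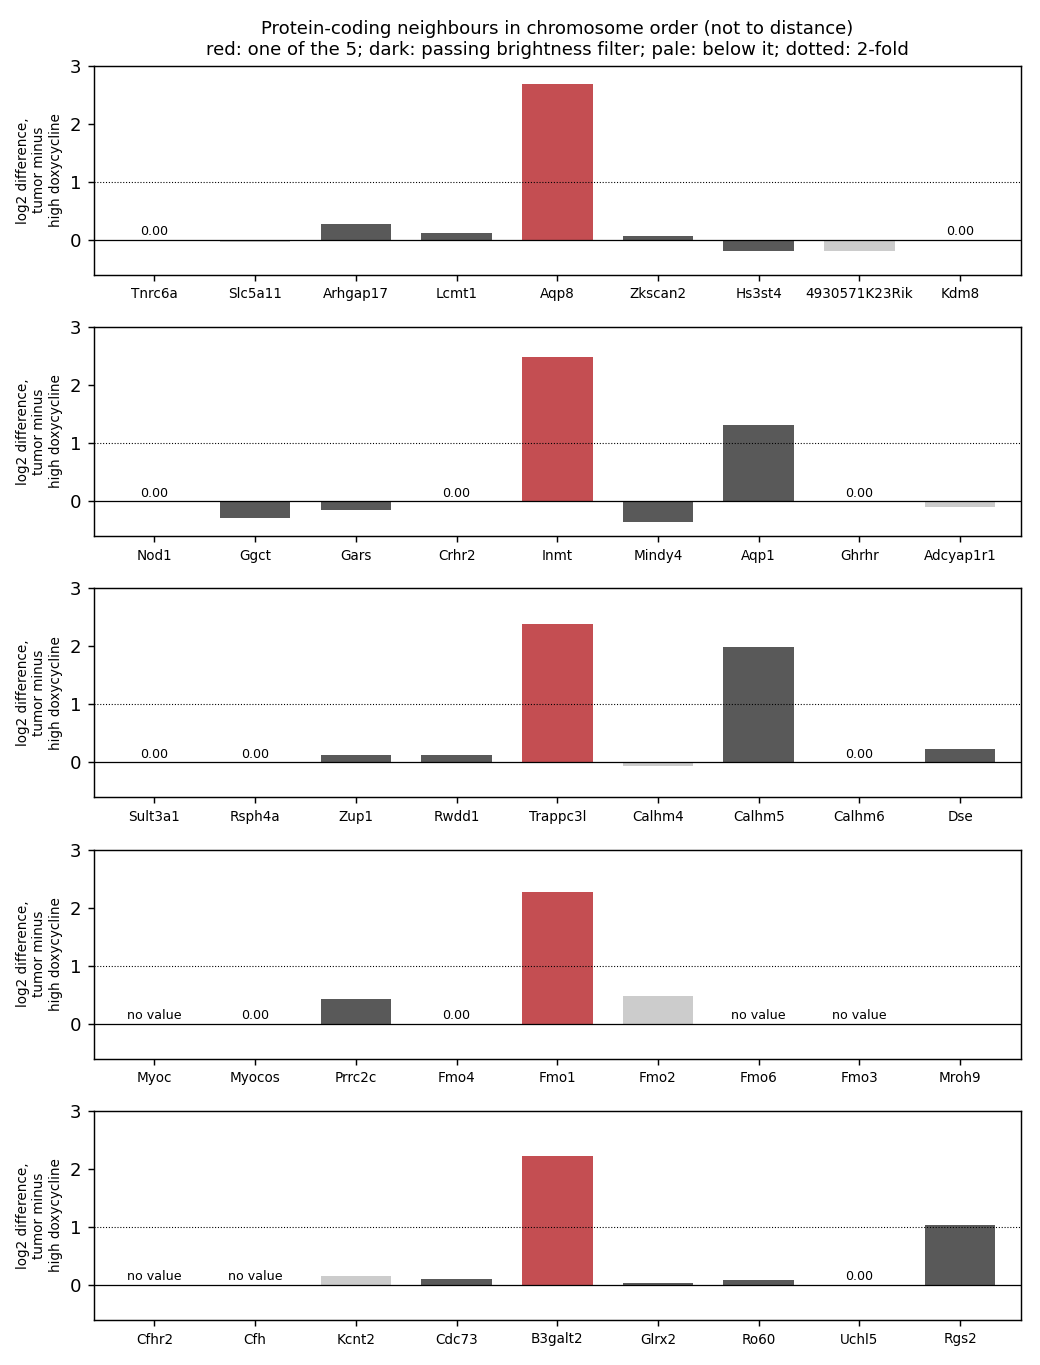
Log2 difference of tumor minus high doxycycline for the 5 genes (red) and up to 4 protein-coding neighbours on each side, in chromosome order and not to distance. Dark bars passed the brightness filter, pale bars did not, and "no value" marks genes not analysed here. Calhm5 beside Trappc3l, Aqp1 beside Inmt and Rgs2 beside B3galt2 pass the dotted 2-fold line, and no neighbour of Aqp8 or Fmo1 does.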

How the data were processed

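Biotinylated material from total RNA was read on the MoGene-1_0-st-v1 array of Affymetrix, per the labels' protocols. The authors deposited a table of linear intensities, not logarithms, with 1 value for each of 28856 probe sets and array. Background correction, summarising and normalization are not given in the sources used here. Probe sets were named by the platform annotation (21789 with 1 symbol, 1621 with several, 5446 with none), and those with 1 symbol gave 19938 genes. Where a gene had several (999 genes), its brightest by the mean over the arrays stood for it. Each array was grouped by its title. Median intensities were 219.8 on tumor, 226.7 on high doxycycline and 250.0 on control, and having 1 array per group limits the precision. Each difference is one of log2(intensity + 1), with no further scaling (Python 3.11.15, pandas 2.3.3), which understates changes of dim genes. Counts take at least 2-fold among genes whose brighter array lay above its median. Differences and counts were tested on simulated data with large changes in bright genes and little noise. That checks the calculation and not how reliable the counts of these arrays are. The 5 genes, their family and marker lists and the alternatives (scaling, pseudocounts, filters, probe sets) were chosen with earlier results of these data known. Named were the 5 genes, some but not all family members past 2-fold, and genes ranked down to 3 below the last of the 5. The 3 nearest patterns of each of the 5 and bright markers were named too. Other genes were named after their values were seen. Family members not in the annotation with 1 symbol are not analysed here. Promoters were RefSeq windows (GRCm38.p6).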

Additional observations from a re-analysis of the deposited data

How the results depend on the processing

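The difference of tumor minus high doxycycline stayed positive for all 5 genes under each of the 8 alternatives that kept the gene. It was 1.88 or more. No support is drawn from this sign, since the genes were picked for large positive differences. The alternative filters and probe set choices could not change these values. Each gene has 1 probe set, and a filter only keeps or drops a gene. Only the scalings and pseudocounts could move them. The lowest values came with a pseudocount of 64, with 2.27 for Aqp8, 2.20 for Inmt, 2.15 for Trappc3l, 2.09 for Fmo1 and 1.88 for B3galt2. With a pseudocount of 16 they were 2.57 for Aqp8, 2.41 for Inmt, 2.32 for Trappc3l and 2.12 for B3galt2. Quantile normalization gave 2.59 for Aqp8, 2.38 for Inmt, 2.29 for Trappc3l, 2.19 for Fmo1 and 2.12 for B3galt2. For tumor minus control a pseudocount of 64 gave 2.41 for Aqp8, 2.68 for Trappc3l and 2.84 for B3galt2, and for high doxycycline minus control 0.96 for B3galt2, which is below 2-fold. These shifts follow from the pseudocount, which weighs most on dim values. Shifting the arrays to a common median moves all differences of tumor minus high doxycycline by 0.044, and it changed no sign. A filter at percentile 75 left out B3galt2 in both comparisons with tumor, and all 5 genes for high doxycycline minus control, so that their values there rest on genes of modest brightness. It lowered the count of genes at least 2-fold brighter on tumor than on high doxycycline from 177 to 103 and that of dimmer ones from 217 to 144. Dimmer genes numbered 691 in place of 1222 for tumor minus control and 569 in place of 1008 for high doxycycline minus control. No paired analysis was possible because each group has 1 array. Signal over background was not given, so that low values such as that of B3galt2 on control have no known floor.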
